A study of Mus musculus with 8 samples.

Results

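The RGS family of regulators of G protein signalling was examined in B-1a cells that had lost PTIP, through 10 genes, Rgs1, Rgs2, Rgs13, Rgs18, Rgs3, Rgs16, Rgs10, Rgs12, Rgs14 and Rgs19. They were found by their gene symbols in the platform annotation, and all 10 were measured among the 22180 genes tested. Where a gene had several probe sets, which was so only for Rgs2, the brighter one, by its mean over the 8 arrays, was used. The family was picked because some of its genes differed between the genotypes on these same arrays, so the differences of the 10 genes are described here without a test.

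B-1a cells are self-renewing B cells of the body cavities that carry CD5. They were isolated by cell sorting from peritoneal washes of mice at 5 weeks of age, and 1 array was run per pool of mice. The B-1a_KO group (KO) came from mice with a Cre allele and PTIPflox/flox, 29 in all, and the B-1a_WT group (control) from 22 mice with the same Cre allele and PTIP+/+, each divided into 4 pools. Every animal of both groups therefore carried 1 Cre allele that acts in B lineage cells, and cells of other lineages in a pool keep Paxip1, the gene for PTIP. The sources used here do not give the number of mice in each pool.

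An RGS protein speeds the hydrolysis of GTP by the alpha subunit of a heterotrimeric G protein and so shortens the signal of the receptor that activated it. In lymphocytes the best known receptors of this kind are those for chemokines and for sphingosine 1-phosphate, which signal largely through inhibitory G proteins and steer migration. Rgs1, Rgs2, Rgs13, Rgs18, Rgs3 and Rgs16 belong to the R4 subfamily, most of whose proteins hold little besides the RGS domain. Rgs10, Rgs12 and Rgs14 form a subfamily of their own, and Rgs19 belongs to another one, whose proteins carry a string of cysteines. Rgs2, Rgs13, Rgs1 and Rgs18 lie next to one another on chromosome 1, with Rgs21 between Rgs1 and Rgs18 in the RefSeq gene table of assembly GRCm38.p6.

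The start regions of 3 genes of this stretch are shown because Rgs2 and Rgs13 were higher in KO while Rgs21, which lies between other members, was not called. Each line gives the 250 bases before the RefSeq start (GRCm38.p6, minus strand, read 5′ to 3′ along the gene), at chr1:144004150-144004399 for Rgs2, chr1:144177373-144177622 for Rgs13 and chr1:144567668-144567917 for Rgs21. Of the 10 members, 7 had an entry in the promoter table, and Rgs1, Rgs14 and Rgs18 had none. Capitals mark matches on either strand to 6 short motifs. The cAMP response element core was searched as TGACG and the CCAAT box by its own letters. The GC box was searched as GGGCGG. The GATA site was searched as GATAAG. The E-box was searched as CANNTG. The TATA box was searched as TATAAA.
Rgs2: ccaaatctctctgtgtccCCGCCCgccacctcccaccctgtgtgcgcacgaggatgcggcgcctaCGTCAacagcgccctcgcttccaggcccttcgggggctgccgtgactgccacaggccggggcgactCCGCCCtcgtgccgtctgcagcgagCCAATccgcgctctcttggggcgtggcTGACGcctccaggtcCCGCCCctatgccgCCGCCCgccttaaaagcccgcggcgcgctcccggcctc
Rgs13: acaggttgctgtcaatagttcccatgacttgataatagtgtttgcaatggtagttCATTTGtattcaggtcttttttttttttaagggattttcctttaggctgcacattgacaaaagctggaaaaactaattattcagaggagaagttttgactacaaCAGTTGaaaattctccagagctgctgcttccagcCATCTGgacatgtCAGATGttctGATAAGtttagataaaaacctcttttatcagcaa
Rgs21: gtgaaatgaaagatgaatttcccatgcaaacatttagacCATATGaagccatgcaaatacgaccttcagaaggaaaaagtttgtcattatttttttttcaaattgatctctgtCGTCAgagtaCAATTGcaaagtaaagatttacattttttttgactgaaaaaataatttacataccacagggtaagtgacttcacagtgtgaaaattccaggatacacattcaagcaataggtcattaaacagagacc

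The window of Rgs2 was rich in G and C, at 72.4% with 30 CpG dinucleotides, whereas that of Rgs13 had 36.0% and 0 CpG and that of Rgs21 had 32.8% and 2 CpG. Among all 32851 windows of this length in the table, 93.6% had a lower G and C content than Rgs2, 5.81% a lower one than Rgs13 and 2.92% a lower one than Rgs21. The Rgs2 window held 2 matches to the cAMP response element core, 4 to the GC box and 1 to the CCAAT box. The Rgs13 window held 1 match to the GATA site and 4 to the E-box, and the Rgs21 window held 1 to the cAMP response element core and 2 to the E-box. No other pair of window and motif gave a match, and no capitals overlap between motifs. Of all windows, 17.8% held the cAMP response element core, 32.7% the GC box, 33.8% the CCAAT box, 6.55% the GATA site, 66.2% an E-box and 12.4% the TATA box. These matches describe letters only. The windows of Rgs2 and Rgs13, both higher in KO, shared none of these motifs. Rgs18, also higher in KO, had no window to compare.

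Values are given on the log2 scale of the array summary, where a difference of 1 is a doubling, and relative to the other genes of each array. Paxip1, the targeted gene, fell by 2.67 (SE 0.22) from 7.05 ± 0.13 in control to 4.38 ± 0.54 in KO (SD, n = 4 pools each; adjusted p = 9.96e-05 in limma), and its values in KO pools 1 to 4 were 4.66, 4.48, 4.79 and 3.58. The B cell genes Cd79a and Ms4a1 and the B-1a marker Cd5 were bright in every pool, at 10.43 or more, 11.01 or more and 7.26 or more, and none of these 3 was called. Of 12 B-1a identity genes, however, limma called 5. Itgam, an integrin chain, fell by 1.68, Zbtb32 by 1.11, Sox5 by 0.95 and Cd9 by 0.60, while Cd36 rose by 1.66; the list mean was 7.12 to 7.23 in KO and 7.32 to 7.53 in control. Of 14 measured pan-B cell genes it called 2, Cd22 (-0.59) and Cr2 (0.74). Both lost their calls in the fit adjusted for T cell markers, with all probe sets tested together and on dropping KO pools 1 and 2, Cd22 also on dropping KO pool 4 or control pool 4, and Cr2 on dropping any single pool but control pool 1. How these identity genes bear on the members was not tested. Across the 22180 genes limma called 797 at an adjusted p under 0.05, which is 3.59%, with 331 higher (1.49%) and 466 lower (2.1%) in KO. The called genes numbered 498 once KO pool 2 was dropped, and 530, 497 and 479 once control pool 2, 3 and 4 was dropped in turn. The mean of 17 measured T cell markers was 6.93, 6.66, 4.98 and 5.44 for KO pools 1 to 4, and for control pools 1 to 4 it was 5.2, 5.34, 4.66 and 4.46. KO pools 1 and 2 stood above the rest. Results are therefore also given from a fit adjusted for this mean, called the T-adjusted fit, and from a fit that omits those 2 KO pools. In these pooled samples a change in the cells that are present and a change in RNA per cell cannot be told apart.

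Rgs13, Rgs18 and Rgs2 were higher in KO, by 4.2-fold, 4.27-fold and 2.28-fold, and the other 7 members overlapped between the groups. All 3 lie in the chromosome 1 stretch and belong to the R4 subfamily. Of the 10 members 9 had a positive difference, with a median of 0.19. Over all genes tested 12100 of 22180 had a positive difference, with a median of 0.02. In 3 members the KO pools all lay above the control pools and in 0 they all lay below. The background for these counts was 5.41% and 5.09% of all genes, or 10.5% in both directions. Without KO pool 3 or without control pool 4 the groups did not overlap in 5 members, against 15% and 13.9% of all genes under the same omissions. Since the family was picked on this contrast, nothing is read from these counts.

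**Figure D1:**
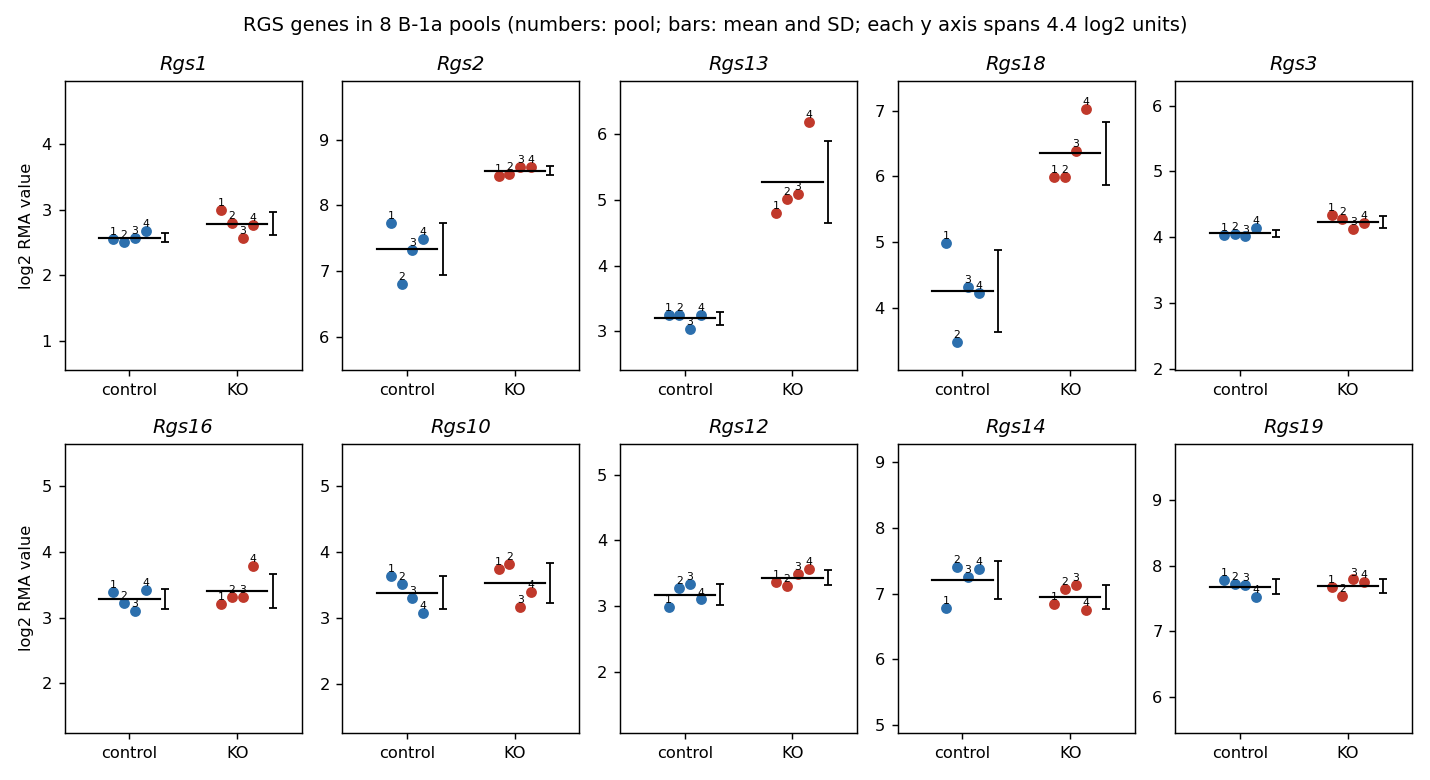
Log2 RMA values of the 10 RGS genes in 4 control pools (blue) and 4 KO pools (red), with pool numbers, the group mean as a line and the SD as a bar; every y axis spans the same number of log2 units. In Rgs2, Rgs13 and Rgs18 the lowest KO pool lies above the highest control pool, by 0.72, 1.55 and 1.01, and in the other 7 genes the groups overlap.

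Rgs13 encodes a small RGS protein known from germinal centre B cells and mast cells. KO pools 1 to 4 measured 4.80, 5.02, 5.09 and 6.18, and control pools 1 to 4 measured 3.25, 3.25, 3.04 and 3.25. The control pools were nearly uniform (3.2 ± 0.10, SD) and all lay below 3.71, the median of all values of the table, whereas the KO pools spread more widely (5.27 ± 0.62) and pool 4 stood above the other 3. The difference was 2.07 (SE 0.24), and the lowest KO pool lay 1.55 above the highest control pool. Because the control values were dim, the fold change of Rgs13 and the narrow spread of its controls cannot be compared directly with those of brighter genes.

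Rgs18 encodes an RGS protein best known from platelets, megakaryocytes and other blood cells. Its values were 5.99, 5.99, 6.39 and 7.02 for KO pools 1 to 4, while control pools 1 to 4 had 4.99, 3.48, 4.32 and 4.23. The controls ranged over 1.5 log2 units here, with pool 1 high and pool 2 low, yet the highest of them lay 1.01 below the lowest KO pool. The difference was 2.09 (SE 0.30). Without control pool 2 it was 1.84 and without control pool 1 it was 2.34.

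Rgs2 encodes a regulator that acts mainly on the Gq class of alpha subunits and is induced by many stimuli. KO pools 1 to 4 gave 8.45, 8.48, 8.58 and 8.58, and control pools 1 to 4 gave 7.73, 6.80, 7.32 and 7.48. The KO pools were nearly identical and the control pools spread, the reverse of Rgs13. The difference was 1.19 (SE 0.16). The second Rgs2 probe set had 6.13, 6.32, 6.56 and 6.25 in KO against 5.34, 4.96, 5.03 and 5.45 in control, a difference of 1.12. Both probe sets thus separated the groups, although they did not order the control pools alike: pool 1 was the highest by the first and pool 4 by the second.

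Rgs1, which restrains the response of B cells to chemokines, measured 3.0, 2.80, 2.57 and 2.76 for KO pools 1 to 4 but 2.55, 2.51, 2.56 and 2.67 for control pools 1 to 4. All 8 values lay below the median of all values, and the groups overlapped. The difference was 0.21 (SE 0.10). It was 0.09 without KO pools 1 and 2 and 0.08 in the T-adjusted fit; KO pool 1, the highest in Rgs1, was also the highest in the T cell marker mean. Whether the Rgs1 probe set responds to its transcript cannot be read from these arrays.

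The remaining R4 members, Rgs3 and Rgs16, showed small differences. Rgs3, whose longer forms carry other domains besides the RGS domain, had 4.34, 4.27, 4.12 and 4.21 in KO and 4.03, 4.05, 4.01 and 4.14 in control, so that the groups overlapped by only 0.02 (difference 0.18, SE 0.08). Rgs16, an RGS gene induced on lymphocyte activation, ran from 3.21 to 3.79 in KO and from 3.10 to 3.42 in control (difference 0.13, SE 0.13). Its highest value was that of KO pool 4, and without that pool the difference vanished to within 0.01.

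Of the subfamily of Rgs10, Rgs12 and Rgs14, none separated the genotypes. Rgs14, a scaffold that also binds Ras family proteins and inactive alpha subunits, was the 1 member with a negative difference, -0.26 (SE 0.14). Its values were 6.84, 7.07, 7.13 and 6.75 in KO and 6.78, 7.41, 7.25 and 7.37 in control, where control pool 1 fell among the KO pools. Rgs12, a large relative with several further domains, differed by 0.25 (SE 0.10), at 3.31 to 3.56 in KO and 2.98 to 3.34 in control. All 8 of its values lay below the median of all values. Rgs10, a short member, differed by 0.15 (SE 0.16), at 3.17 to 3.82 in KO and 3.08 to 3.64 in control. Its difference turned to -0.23 (SE 0.12) in the T-adjusted fit and to -0.10 (SE 0.16) without KO pools 1 and 2, the pools in which it was highest in KO (3.74 and 3.82).

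Rgs19, also known as GAIP, varied little across all pools, with 7.67, 7.54, 7.79 and 7.75 in KO and 7.78, 7.72, 7.71 and 7.52 in control. Its difference was 0.01 (SE 0.09).

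Among themselves the members differed in how much the pools of 1 genotype varied. The residual SD of the fit was 0.56 for Rgs18, larger than in 99.5% of all genes, 0.44 for Rgs13 (98.8%) and 0.28 for Rgs2 (92.6%). It was 0.08 for Rgs3 (8.23%) and 0.11 for Rgs19 (24.9%). KO pool 4 held the highest value of Rgs13, Rgs18, Rgs16 and Rgs12 among the KO pools, but the lowest of Rgs14, at 6.75. It was also the pool with the lowest Paxip1, at 3.58 against 4.48 or more in the other 3. The other KO pools did not keep such an order. KO pool 3 had the highest Paxip1, at 4.79, but the next highest Rgs13 and Rgs18, at 5.09 and 6.39. Without KO pool 4 the differences of Rgs13 and Rgs18 were 1.77 and 1.87. With 4 pools the order of the pools was not tested.

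**Figure D2:**
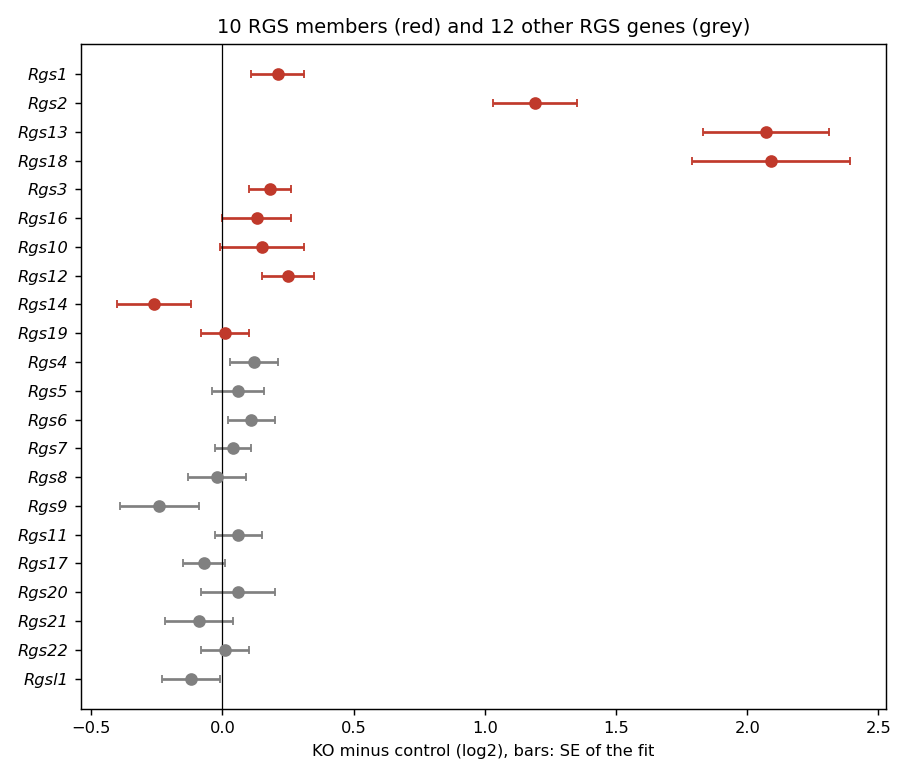
KO minus control on the log2 scale for the 10 RGS members (red) and 12 other RGS genes (grey), with the SE of the fit as bars. Rgs13, Rgs18 and Rgs2 lie at 2.07, 2.09 and 1.19, and the 12 other genes lie between -0.24 and 0.12.

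The 12 other RGS genes of the array, among them Rgs4, Rgs5, Rgs8 and the retinal and neuronal Rgs9, are the RGS genes left over once the members had been picked with results of these arrays known, so their counts are not free of that choice. They were tested in the fit across all genes. Limma called 0 of them (smallest adjusted p = 0.528, and 0 at an unadjusted p under 0.05), and the groups overlapped in all 12. Over all genes 3.59% were called and the groups did not overlap in 10.5%, so these counts carry little weight. The differences of the 12 genes ran from -0.24 for Rgs9 to 0.12 for Rgs4, with a median of 0.02. They were dim: single values lay between 2.30 and 4.54, and 9 of the 12 were below the median of all values in every pool.

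Neighbouring genes of the chromosome 1 stretch were compared next, since Rgs2, Rgs13 and Rgs18 lie together there. Limma called 0 of 11 neighbours, namely Rgs21 and the 5 nearest measured protein-coding genes on either side (smallest adjusted p = 0.177; 1 at an unadjusted p under 0.05, the phospholipase gene Pla2g4a at 0.31). Their differences ran from -0.15 to 0.31, and the groups overlapped in all 11. Over all genes 3.59% were called and the groups did not overlap in 10.5%, so counts of 0 among 11 genes carry little weight. Uchl5, a deubiquitinase gene next to Rgs2, differed by 0.15 (SE 0.10) and was bright, at 8.04 to 8.24 in KO and 7.75 to 8.19 in control. Brinp3, beyond Rgs18, differed by -0.12 (SE 0.10), and Rgs21 by -0.09 (SE 0.13), both from dim values. The neighbour Ptgs2 was dim as well, at 2.49 to 2.66 in KO and 2.64 to 2.73 in control. Rgs1 and Rgs21, whose groups overlapped, lay side by side between Rgs13 and Rgs18. Both were dim in every pool, so little can be read from their overlap.

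**Figure D3:**
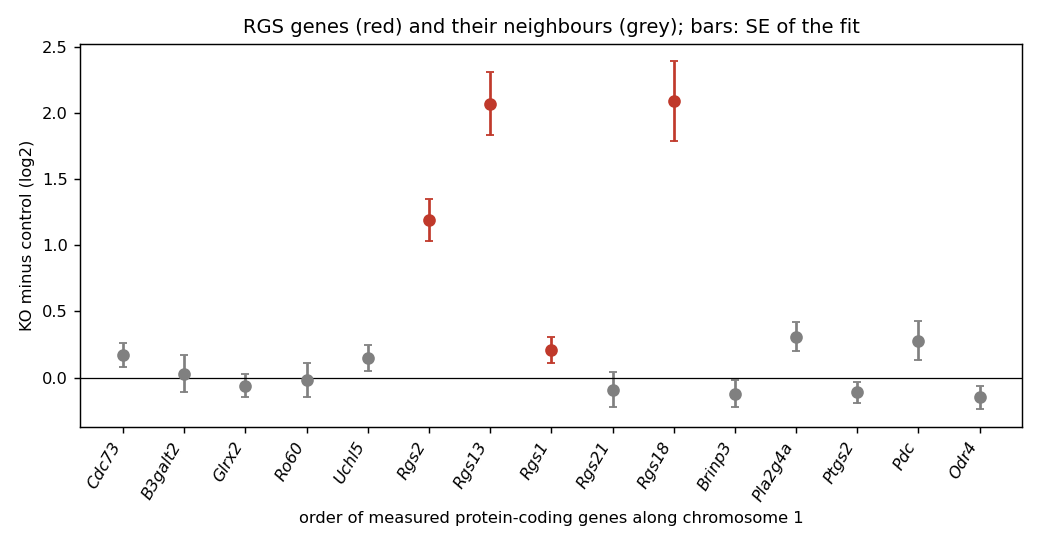
KO minus control (log2) in gene order along chromosome 1 for 4 RGS members (red) and 11 neighbours (grey), with the SE of the fit as bars. The neighbours lie between -0.15 and 0.31, as does Rgs1 at 0.21, and Rgs2, Rgs13 and Rgs18 stand above them.

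The genes most like 4 of the members over the 8 arrays were listed. Some gene is always nearest, and the ranking used the same values that picked the members, so nothing is read from the likeness. As a measure of likeness each gene was centred on its own mean, and the root mean square difference from the member was taken over the 8 arrays. Predicted genes and clone names were left out before the genes were ranked. The nearest gene to both Rgs18 and Rgs13 was Anxa1, an annexin that binds phospholipids, at 0.255 and 0.306. Anxa1 had 6.52, 6.70, 6.94 and 7.21 for KO pools 1 to 4, but 5.25, 4.55, 4.97 and 4.87 in control, so that it was highest in KO pool 4 and, like Rgs18, lowest in control pool 2. The next gene was Cd36, a fatty acid receptor, for Rgs18 (0.276) and Vpreb3, a gene of B cell precursors and follicular B cells, for Rgs13 (0.354). Rgs13 itself ranked 4 among the genes nearest to Rgs18, and Rgs18 ranked 3 for Rgs13, at 0.409 in both cases. Nearest to Rgs2 were Pik3cg (0.133) and the neuron navigator gene Nav2 (0.175). Rgs1, which hardly varied, was nearest to Mycbpap and Paqr4 (0.0434 and 0.0449), which hardly varied either.

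Markers of other cells that express RGS genes were set beside the members. Limma called 0 of 10 platelet and megakaryocyte markers (1 at an unadjusted p under 0.05) and 0 of 11 mast cell markers (0 at an unadjusted p under 0.05). Over all genes 3.59% were called and 3398 of 22180 had an unadjusted p under 0.05, so counts in lists this short carry little weight. The platelet list mean was 3.24 to 3.35 in KO and 3.18 to 3.47 in control, and the mast cell list mean was 3.13 to 3.42 in KO and 2.94 to 3.75 in control. Control pool 1 held the highest of both, with the platelet chemokine gene Pf4 at 6.48 against 3.73 to 4.90 in the other control pools, and the mast cell protease gene Cpa3 at 7.0 against 3.75 to 4.14. That pool was also the highest control in Rgs18 and Rgs2, whereas in Rgs13 control pools 1, 2 and 4 all read 3.25. Itga2b, the platelet integrin chain, was below the median of all values in every pool. Without control pool 1 the differences of Rgs18, Rgs2 and Rgs13 were 2.34, 1.32 and 2.09. Control pool 1 lay above the control mean in each of these genes, so leaving it out could only raise their differences. How the platelet and mast cell markers bear on the members was not tested. Of 12 macrophage and monocyte markers limma called 1, Cd68, lower in KO (-0.56; 5 at an unadjusted p under 0.05), and the list mean was 4.57 to 4.79 in KO and 4.58 to 5.19 in control. Cd68 lost its call in the T-adjusted fit, with all probe sets tested together, and on dropping either or both of KO pools 1 and 2 or any single control pool except pool 2. Adgre1, which encodes the macrophage antigen F4/80, differed by -0.76 without a call and by -1.21 with a call in the T-adjusted fit. Of 13 neutrophil and eosinophil markers it called 0 (1 at an unadjusted p under 0.05), with a list mean of 2.79 to 2.91 in KO and 2.76 to 2.89 in control. Germinal centre B cell genes had 1 higher and 1 lower call among 12 measured. These were the chemokine scavenger receptor Ackr3 (0.56) and Rassf6 (-0.67), while Bcl6, the master repressor of that stage, differed by 0.23 without a call. The list mean was 4.15 to 4.30 in KO and 4.24 to 4.4 in control.

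T and NK cell markers had higher means in KO. Of the 17 T cell markers 16 had a positive difference, with 0 called (11 at an unadjusted p under 0.05). Over all genes 12100 of 22180 had a positive difference, 3.59% were called and 3398 had an unadjusted p under 0.05. Cd3e, a chain of the T cell receptor complex, had 8.64, 8.04, 5.90 and 6.92 in KO and 5.87, 6.24, 4.51 and 4.02 in control. All 13 NK markers had a positive difference and 2 were called, Klrb1c and Klrd1; their list mean was 4.45 to 5.70 in KO and 3.78 to 4.56 in control. Both lost their calls in the T-adjusted fit, with all probe sets tested together, on dropping KO pools 1 and 2 together, and on dropping KO pool 1 or any control pool except pool 2. Klrb1c also lost its call on dropping KO pool 3, and Klrd1 on dropping KO pool 2 or KO pool 4 and with an intensity trend. Only the 4 markers of each list with the smallest p were followed through the alternative fits. Without KO pool 3, the KO pool lowest in both lists, Cd3d, Cd3e, Il7r and Gata3 of these T cell markers gained a call. Klrk1 and Ccl5 did so among the NK markers. Cd3d, Il7r, Gata3 and Klrk1 were also called with array weights, and Il7r, Gata3 and Klrk1 with dim genes left out. Gata3 was called with an intensity trend too. Il7r was also called on dropping control pool 1. KO pools 1 and 2, the highest in T cell markers, held the lowest KO values of Rgs2, Rgs13 and Rgs18. Without those 2 pools the differences of these genes were 1.25, 2.44 and 2.45 in that order. Leaving out the lowest KO values could only raise them. In the T-adjusted fit the differences were 1.32, 2.37 and 2.47. How the T cell markers bear on these genes was not tested.

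**Figure D4:**
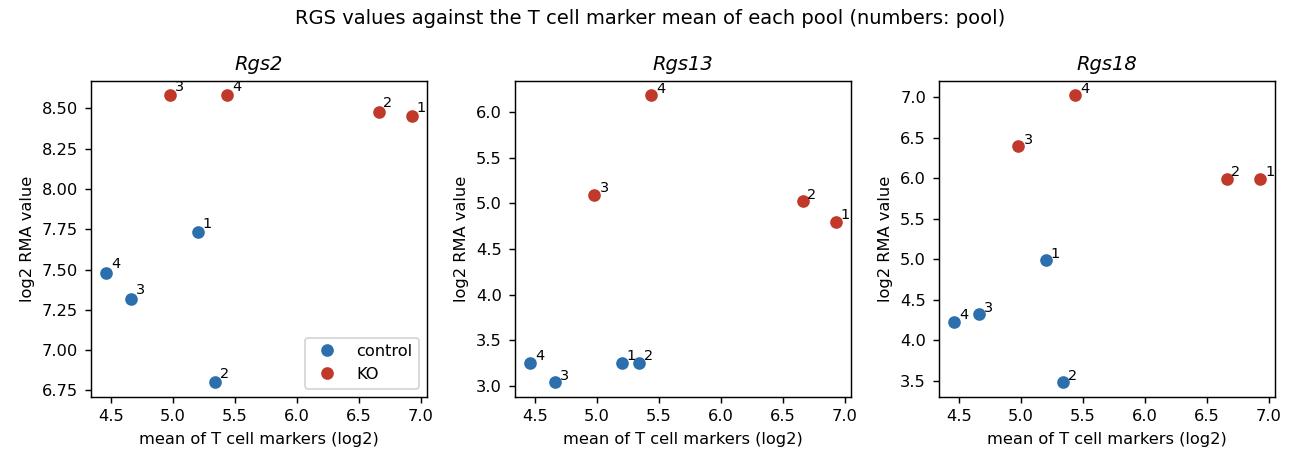
Log2 values of Rgs2, Rgs13 and Rgs18 (y axes) against the mean of 17 T cell markers (x axis, log2) in control pools (blue) and KO pools (red), with pool numbers. KO pools 1 and 2, at 6.93 and 6.66 on the x axis, hold the lowest KO values of each gene.

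Genes that respond within minutes to stimulation were checked because Rgs1, Rgs2 and Rgs16 belong to that class in many cells. Of 24 immediate early genes limma called 2 higher and 1 lower, or 12.5% against 3.59% of all genes. The list was chosen with earlier results of these data known, so nothing is read from this share. Cd69, an activation marker, rose by 1.6 (SE 0.15, adjusted p = 0.000192) and the phosphatase gene Dusp2 rose by 0.46, whereas the AP-1 gene Fosl2 fell by 0.59. Fos and Egr1, the classic members of the class, had differences of -0.13 and -0.14 without a call. The list mean was 5.52 to 5.70 in KO and 5.38 to 5.54 in control. Dusp2 lost its call on dropping KO pool 1, KO pool 4 or control pool 3. Dusp2 and Fosl2 passed neither in the T-adjusted fit nor without KO pools 1 and 2, and Fosl2 was also lost without any single pool but control pool 1, with all probe sets tested together and with array weights.

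Across the G protein pathway outside the members, 14 of 144 measured genes were called, 3 higher and 11 lower in KO, or 9.72% against 3.59% of all genes. The pathway lists were chosen with earlier results of these data known, so nothing is read from the higher share. The median difference was 0.03, against 0.02 over all genes. In the T-adjusted fit 6 were called, and without KO pools 1 and 2 it was 7. The calls of Ccr1, Gpr183, Grk5, Pik3cg and Prkar2b were made in each of the 18 alternative fits run for single genes.

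Receptors accounted for 7 of these calls, out of 45 measured receptors for chemoattractants and lipids, with 2 higher and 5 lower. Ccr1, a receptor for inflammatory chemokines, fell by 1.57 (SE 0.14, adjusted p = 0.000149), from 5.54, 5.05, 5.31 and 5.34 in control to 3.81, 4.02, 3.41 and 3.71 in KO. Gpr183, which binds oxysterols and positions B cells, fell by 0.94 (SE 0.16). Gpr18, a lipid receptor abundant in lymphocytes, rose by 0.49 (SE 0.09). Ptafr, the receptor for platelet-activating factor, fell by 0.69 (SE 0.12). The rest were Ackr3, which rose, S1pr3 (-0.53) and Ccr9 (-0.37), named after their values were seen; S1pr3 was dim in both groups. Ptafr, S1pr3, Ccr9 and Ackr3 lost their calls both in the T-adjusted fit and without KO pools 1 and 2, and Gpr18 only in the latter. Single pools decided S1pr3 (KO pool 1 or control pool 4) and Ccr9 (any pool but KO pool 2). Ccr9 was not called either with all probe sets tested together or with an intensity trend. The chemokine receptors that guide B cells in lymphoid tissue were not called: Cxcr5 differed by 0.24, Ccr7 by -0.11 and Cxcr4 by -0.36, and the egress receptor S1pr1 by -0.51 (adjusted p = 0.0967).

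The alpha subunits, on which RGS proteins act, showed no call. Limma called 0 of 16 (2 at an unadjusted p under 0.05), against 3.59% of all genes, so the count carries little weight. Differences ran from -0.13 to 0.48. The inhibitory subunit genes Gnai2 and Gnai3 differed by -0.03 (SE 0.08) and 0.14 (SE 0.08), Gnaq by 0.14 (SE 0.16) and Gna13, which acts through RhoA, by 0.12 (SE 0.08). The 2 at an unadjusted p under 0.05 were Gna12 (0.31, adjusted p = 0.201) and Gna15 (0.48, adjusted p = 0.208). Of 15 beta and gamma subunit genes 1 was called, Gnb3, which fell by 0.67 (SE 0.12); it lost its call in the T-adjusted fit (adjusted p = 0.0521; 0.00694 to 0.0521 over all alternatives).

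Of 14 further genes whose products carry an RGS-type domain, among them the receptor kinases and the axins, 1 was called. Grk5, a kinase that phosphorylates active receptors, fell by 1.23 (SE 0.13, adjusted p = 0.000532), with 6.77, 6.36, 6.60 and 6.73 in control and 5.12, 5.61, 5.23 and 5.58 in KO. Grk6, its relative in lymphocytes, differed by -0.23 without a call. Among 10 genes for arrestins and other G protein regulators 0 were called (1 at an unadjusted p under 0.05), against 3.59% of all genes.

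Effectors gave 5 calls among 32, 1 higher and 4 lower. Pik3cg, the catalytic subunit of the lipid kinase that beta and gamma subunits activate, rose by 1.12 (SE 0.12, adjusted p = 0.000589), with 6.84, 7.08, 6.92 and 7.11 in KO and 6.15, 5.55, 5.89 and 5.86 in control. Its control pools ran in nearly the order of those of Rgs2, with pool 1 highest and pool 2 lowest. Prkar2b, a regulatory subunit of the cAMP-dependent kinase, fell by 1.05 (SE 0.09, adjusted p = 0.000155). Plcb4, a phospholipase downstream of Gq, fell by 0.84 (SE 0.16) and Rap1gap2, which switches off Rap1, by 0.58 (SE 0.12). The other fall was the phosphodiesterase gene Pde7a (-0.43), named after its value was seen. Plcb4 lost its call in the T-adjusted fit (adjusted p = 0.0946; 0.00547 to 0.0946 over all alternatives), where its difference was -0.86, and with all probe sets tested together. Rap1gap2 and Pde7a lost theirs in that fit and without KO pools 1 and 2. Rap1gap2 was also lost without KO pool 1 or 2 or any single control pool, and Pde7a without any single pool but control pool 2. Neither was called with all probe sets tested together, and Pde7a was also lost with array weights and with the mean of its probe sets.

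**Figure D5:**
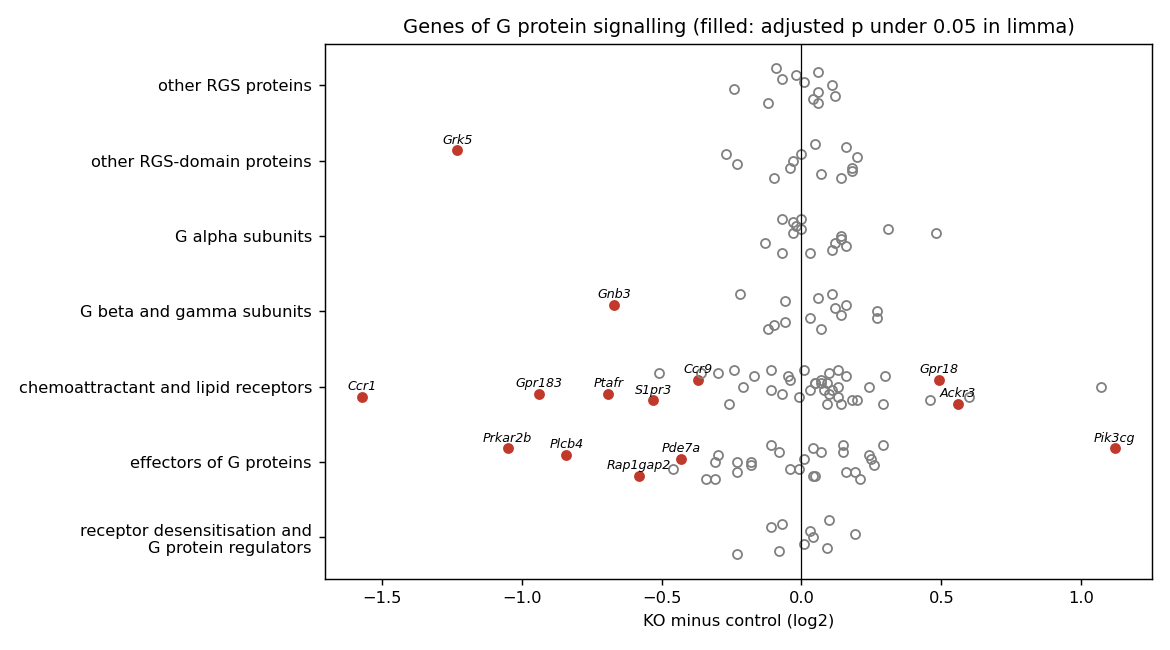
KO minus control (log2, x axis) of the genes of 7 lists of G protein signalling outside the members; each circle is 1 gene, and its height within a list has no meaning. The 14 filled genes had an adjusted p under 0.05 in limma, 3 of them to the right of 0 and 11 to the left.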

How the data were processed

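Per the submitters' processing notes, the authors deposited log2 values made with RMA (background correction, quantile normalization between arrays and a probe summary) in R 3.2.2; the sources used here do not name the package or the probe annotation. Names for the 41345 probe sets came from the platform annotation: 23521 of the 25335 listed had 1 gene symbol, 1814 had several and were left out, and 16010 were not listed. Symbols were updated by gene identifier through the RefSeq table of GRCm38.p6 (23328 matched). The probe set with the highest mean stood for each of 22180 genes.

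KO was compared with control in limma 3.58.1 (R 4.3.3; lmFit, eBayes, two-sided), with Benjamini-Hochberg adjustment over all genes; called means an adjusted p under 0.05. The fit was tested on simulated data with independent noise in each gene. That noise holds no difference in cell content between pools, so the test does not cover such differences. Errors are SDs over 4 pools or SEs from the fit; the number of arrays limits the precision. The members, lists and alternatives were chosen with earlier results of these data known. Of 314 listed symbols 288 were measured; the others were not analysed here. Genes named from a pathway list are the 4 called genes with the smallest p, unless said otherwise; genes named without a call were chosen after their values were seen. Correlations of deviations between pools of equal replicate number were low, at 0.0363 to 0.107. The control pool of equal number correlated highest for KO pools 1 and 2 but not for KO pools 3 and 4. Whether equal numbers mark paired pools was therefore not settled.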

Additional observations from a re-analysis of the deposited data

Results flagged for a closer look

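The gap between 1 pool and the nearest other, divided by the range of its group of 4, passed Dixon's critical value for 4 samples in 10 of 148 groups of values examined (6.76%); chance gives about 1 in 20. Among the members this concerned Rgs13 in control, where pool 3 measured 3.04 and the other 3 pools 3.25, a gap that is small in absolute size. Control pool 2 stood low in Gpr18 (9.65) and Pde7a (6.93) and high in Gpr183 (9.27). Control pool 1 stood high in Cpa3 (7.0) and Itgam (7.7), and control pool 3 in the platelet gene Ppbp (3.64). KO pool 4 stood high in Cd36 (8.02) and Gp6 (3.03) and low in the mast cell gene Hdc (3.0).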

How the results depend on the processing

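The differences of Rgs2, Rgs13 and Rgs18 ran from 1.01 to 1.32, 1.77 to 2.44 and 1.84 to 2.47 over the 18 alternative fits. Their groups did not overlap, so leaving out pools could not reverse the direction, and nothing is read from its being kept. Those of Rgs1, Rgs3, Rgs12 and Rgs14 also kept their direction where they could be fitted. Rgs1, Rgs10, Rgs12 and Rgs16 were left out as dim in 1 of them. Rgs16, Rgs19 and Rgs10 reached values of 0 or below; of these Rgs10 moved by more than its SD, to -0.23 when adjusted for the T cell marker mean (the T-adjusted fit). Members whose groups did not overlap numbered 3 to 5 when 1 pool was left out, 5 without KO pool 3 or control pool 4, against 13.7% to 15% of all genes. The called genes, 797 in the fit reported, numbered 403 with all probe sets tested together, 308 in the T-adjusted fit (271 shared), 320 without KO pools 1 and 2 (289 shared), 311 at an adjusted p under 0.01, and 479 to 758 without 1 pool (460 to 619 shared): 498 without KO pool 2 and 530, 497 and 479 without control pools 2, 3 and 4. The 14 called pathway genes became 6 in the T-adjusted fit, 7 without KO pools 1 and 2, 6 at an adjusted p under 0.01 and 10 to 14 without 1 pool; no called pathway gene changed sign. The cause of these changes in number was not tested. Pairing of pools with equal replicate numbers was not settled. With the replicate number as a block 666 genes were called (579 shared). Of the genes named, Ccr9, Pde7a, Klrb1c and Cr2 were not called with it, and Cd3d, Cd3e, Il7r, Gata3, Klrk1, Ccl5 and Adgre1 were. The neighbours of the chromosome 1 genes gave 0 calls in each alternative. Dim probe sets limit what can be seen of Rgs1, Rgs12 and most of the other RGS genes.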
